A study of Mus musculus with 11 samples.

Results

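CD4 T cells were followed in the brain cortex of mice with experimental autoimmune encephalomyelitis (EAE), the standard mouse model of multiple sclerosis. A cell was taken as a CD4 T cell when it held at least 2 UMIs (unique molecular identifiers, 1 per captured transcript) of the CD3 chains Cd3d, Cd3e and Cd3g together, at least 1 UMI of Cd4 and 0 UMIs of Cd8a and Cd8b1. It also had to hold at most 3 UMIs of the myeloid genes C1qa, Csf1r and Lyz2 and at most 2 of the endothelial genes Cldn5 and Flt1. Only cells with more than 500 and fewer than 6000 detected genes and under 25% mitochondrial UMIs were kept. These limits gave 510 CD4 T cells among 16418 kept cells of the EAE libraries, 264 of 8322 in EAE 1 and 246 of 8096 in EAE 2. The whole series held 50625 kept cells, of which 563 met the same limits.

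The series profiled single cells of mouse cortex by droplet sequencing of transcript 3′ ends in 11 libraries: 4 of juvenile mice at postnatal day 10, 3 of adult mice aged 7 to 11 weeks, 2 of aged mice at 18 months and 2 of EAE mice. All mice were C57BL/6, and the juvenile, adult and aged mice were untreated. EAE mice were 7 to 11 week old females given a myelin oligodendrocyte glycoprotein peptide in Complete Freund's Adjuvant (150 μl at 0.75 mg/ml), with intravenous pertussis toxin (100 μl at 2 μg/ml) on the same day, per the study's methods, and on day 2, and were taken at disease peak. Mice were perfused before dissection, myelin and dead cells were removed, and the cortex of 3 mice (EAE, aged) or 6 mice (juvenile, adult) was pooled into each library, so that a library is a pool and not an animal. The EAE libraries held the most UMIs in total, 34326349 and 34123281, at a median of 3072.5 and 3153 per kept cell against 2420 to 4199.5 in the others, and the CD4 T cells held a median of 3243.5 UMIs in EAE 1 and 3421 in EAE 2.

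CD4 T cells recognise peptide on major histocompatibility complex class II and direct other immune cells through cytokines and surface ligands. Their helper programs differ in the cytokines they make and the transcription factors they use. T helper 1 cells use the transcription factor T-bet (Tbx21) and secrete interferon gamma (Ifng), T helper 17 cells secrete interleukin 17, and T helper 2 cells use Gata3. Regulatory T cells, defined by Foxp3, restrain the others. In EAE, myelin-reactive CD4 T cells of the T helper 1 and T helper 17 kind, and the cytokine GM-CSF (Csf2) that they can make, are known to drive inflammation of the central nervous system.

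The gate genes chose the cells, so their levels are given as a description only. Cd3d, Cd3e and Cd3g together reached a median of 9 UMIs per CD4 T cell in EAE 1 and 11 in EAE 2, and Cd4 a median of 1 in both. Most calls rested on a single Cd4 transcript: 159 of the 264 cells in EAE 1 and 135 of the 246 in EAE 2 held exactly 1 Cd4 UMI. At the CD3 limit, 5 and 7 members held exactly 2 CD3 UMIs, while 1 and 8 cells that met every other criterion held exactly 1. At the myeloid limit, 25 and 26 members held exactly 3 myeloid UMIs and 18 and 14 cells fell just outside with 4. At the endothelial limit, 18 and 22 members held exactly 2 UMIs and 5 cells in each library fell just outside with 3. T cells with no UMI of either coreceptor were about as many as the CD4 T cells, 271 and 255, and cells with UMIs of both coreceptors, 13 and 9, were set aside.

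The label was set against genes the gate did not use. Trbc2, a constant region of the T cell receptor beta chain, was detected in 477 of the 510 cells and the costimulatory receptor Cd28 in 416. Neither marks the CD4 kind, and neither was confined to T cells. Trbc2 was found in 123 of 136 and 102 of 108 CD8 T cells. In NK cells it was found in 19 of 39 and 17 of 36, and in B cells in 0 of 26 and 1 of 15. Cd28 was found in 117 of 136 and 87 of 108 CD8 T cells. In NK cells Cd28 was found in 19 of 39 and 13 of 36, and in B cells in 1 of 26 and 0 of 15. Zbtb7b, the factor ThPOK that sets the CD4 lineage, was found in 39 of 264 and 31 of 246 CD4 T cells, and in 6 of 136 and 5 of 108 CD8 T cells. Markers of gamma delta T cells summed to 2 UMIs in each library. Trac, the alpha chain constant region, gave only 18 UMIs in all CD4 T cells against 2899 of Trbc2, and was as scarce in CD8 T cells with 12 UMIs. Transcripts of other cortical cells were present too. Ttr, the choroid plexus transcript for transthyretin, was found in every CD4 T cell, and C1qb, a complement gene of microglia, in 239 of 510. All 12 genes of a microglia and macrophage marker list were detected in the CD4 T cells of both libraries and summed to 2173 and 2072 CPM (UMIs of the gene per 1000000 UMIs of the summed population), beside 2204 and 2025 CPM in CD8 T cells and 57114 and 57916 CPM in myeloid cells. The list stood higher in NK cells, at 5345 and 5719 CPM, and in B cells, at 4998 and 5028. In NK cells Fcer1g and Tyrobp, signalling adaptors that NK cells also use, made up 1539 and 1956 and 1916 and 2153 CPM of it, against 84.2 to 90.0 in CD4 T cells. In B cells Apoe, an apolipoprotein, made up 2441 and 2540 CPM, against 454 and 430.4 in CD4 T cells. The 6 monocyte markers summed to 2160 and 2240 CPM in CD4 T cells and 5169 and 4184 in CD8 T cells, of which Ly6c2 gave 558 and 762 against 3548 and 2630.2. In NK and B cells they summed to 1381 to 1964 CPM. The part of these transcripts in the results was not tested. A doublet caller marked 2.49% and 2.46% of the kept cells of the EAE libraries, among them 1 CD4 T cell in EAE 1 and 0 in EAE 2. The EAE libraries shared 113 cell barcodes, none of them a CD4 T cell in both.

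CD4 T cells made up 3.17% of the kept cells in EAE 1 (exact 95% binomial interval 2.81 to 3.57) and 3.04% in EAE 2 (2.68 to 3.44). In the adult libraries, of the same age, the share ran from 0.0514% to 0.126%, which came from 10 cells. It ran from 0.126% to 0.196% in the aged libraries, from 16 cells. In the juvenile libraries it ran from 0% to 0.316%, from 27 cells, and the exact interval of 0 of 2552 cells in Juvenile 2 reached 0.144%. Thus the intervals of both EAE libraries lay above every other library. All intervals here cover counting error only, and because the cells were chosen in the EAE libraries no test is given.

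The make-up of the T cells also varied between libraries. In EAE, CD4 T cells were 66.0% and 69.5% of the T cells that had a coreceptor UMI, while in the aged libraries they were 10.4% and 8.22%, the remainder being CD8 T cells. In the adult libraries, matched to EAE in age, they were 28.6% of 14 such cells, 50% of 8 and 50% of 4, and the intervals of Adult 2 (15.7 to 84.3) and Adult 3 (6.76 to 93.2) held the EAE shares. In the juvenile libraries with more than a handful of such cells, Juvenile 3 and Juvenile 4, the share was 65.0% and 68.4% on 20 and 19 cells, so CD4 T cells outnumbered CD8 T cells there too. Of all gated lymphocytes (T, natural killer and B cells) CD4 T cells were 35.9% and 37.3% in EAE. B cells were fewer in EAE than in the adult and aged libraries, with 26 and 15 cells in the EAE libraries, 0.312% and 0.185% of kept cells, against 0.691% to 1.98% in the adult libraries, 1.09% and 1.49% in the aged and 0.187% to 1.104% in the juvenile libraries, of which Juvenile 1 and Juvenile 2 (0.235%) lay within the EAE values.

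**Figure D1:**
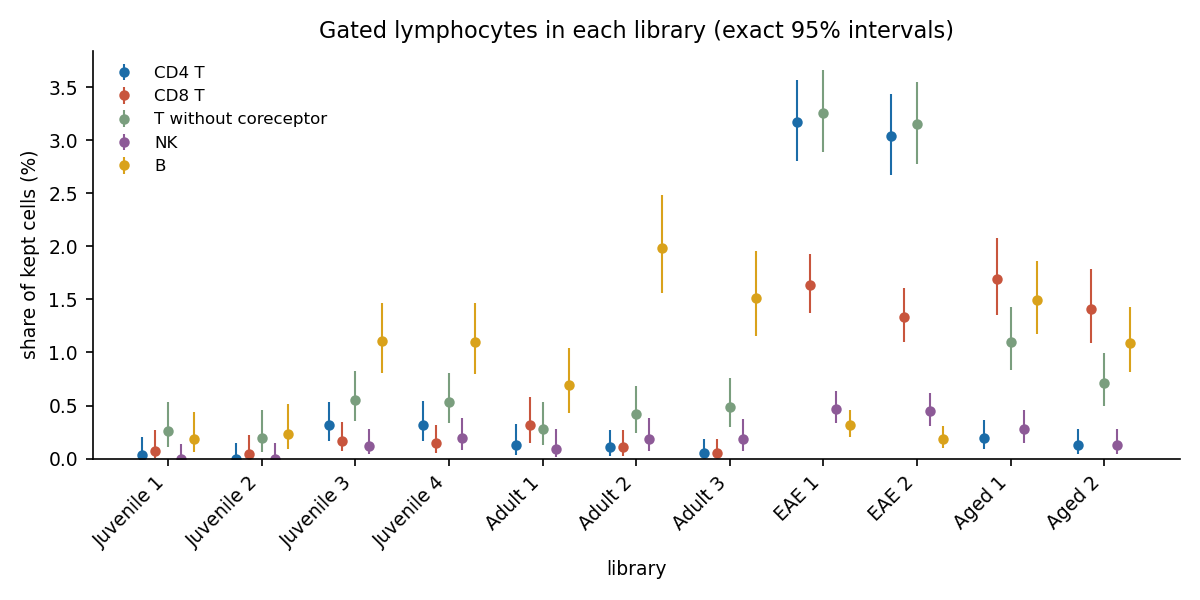
Share of kept cells in each gated lymphocyte population (y axis, percent) in each of the 11 libraries (x axis), with exact 95% binomial intervals as bars. CD4 T cells reach 3.17% and 3.04% in the EAE libraries and stay at or below 0.316% in all others.

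The few CD4 T cells of the other libraries had shares of cells with a UMI that lay apart from those of EAE in some of the genes examined and near them in others, within wide counting error. Ccr7, the chemokine receptor that guides T cells to lymph nodes, was found in 19 of 510 EAE cells, 16 of 27 juvenile cells, 4 of 10 adult cells and 1 of 16 aged cells. Cxcr6, a chemokine receptor of tissue T cells, showed the other order, with 398 of 510 EAE cells (78.0%, 74.2 to 81.6), 10 of 16 aged cells, 1 of 10 adult cells and 1 of 27 juvenile cells. Tnfrsf4, the costimulatory receptor OX40, was found in 352 of 510 EAE cells (69.0%, 64.8 to 73.0), 4 of 16 aged, 3 of 27 juvenile and 0 of 10 adult cells. In EAE endothelial cells the unthinned shares were 0.839% and 0.765% for Ccr7, 1.74% and 1.47% for Cxcr6 and 1.12% in both libraries for Tnfrsf4. Ccr7 was thus seen in the highest share of juvenile cells, although the interval of the adult cells (12.2% to 73.8%) held the juvenile share of 59.3%, and Cxcr6 and Tnfrsf4 in the highest share of EAE cells, although for Cxcr6 the interval of the aged cells (35.4% to 84.8%) held the EAE share. In other genes the intervals overlapped those of EAE. Cd28 was found in 81.6% of EAE cells (77.9 to 84.8), 9 of 10 adult, 12 of 16 aged and 20 of 27 juvenile cells. Cd40lg was found in 42.0% of EAE cells (37.6 to 46.4), 5 of 10 adult, 8 of 16 aged and 6 of 27 juvenile cells. Icos and Ctla4, at 75.7% and 35.9% of EAE cells, were found in 10 and 9 of 16 aged cells, whereas Icos was found in 6 of 27 juvenile cells (8.62% to 42.3%). Median depth was 3308.5 UMIs in EAE cells, 3112.5 in adult, 2468 in juvenile and 2029 in aged cells, and its part in these shares was not tested.

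To describe helper programs per cell at equal depth, each cell was thinned to 1000 UMIs. The shares of cells with a UMI were compared with those in endothelial cells, which should lack these transcripts. Endothelial cells were those with at least 3 UMIs of Cldn5 and Flt1, at most 3 myeloid UMIs and no CD3 UMI. Leaving out cells with a CD3 UMI can lower their shares of T cell transcripts. Of the T helper 1 genes Tbx21, Ifng, Cxcr3 and Il12rb2, at least 1 was detected in 28.5% of the 263 CD4 T cells of EAE 1 that were deep enough (23.1 to 34.4) and in 34.6% of the 246 of EAE 2 (28.6 to 40.9), beside 0.727% and 0.616% of endothelial cells. Il17a, the interleukin of T helper 17 cells, was seen in 1.14% (0.236 to 3.30) and 1.22% (0.252 to 3.52), beside 0% of endothelial cells in both libraries, which allows a share of up to 0.0948% and 0.0972%. For the T helper 2 genes Gata3, Il4, Il5 and Il13 the shares were 10.6% and 14.2%, beside 0.190% and 0% of endothelial cells (0% allows up to 0.0972%), and Il4, Il5 and Il13 together contributed 1 UMI in all 510 cells, so that this share was Gata3. For the regulatory genes Foxp3, Il2ra, Ikzf2 and Ikzf4 the shares were 8.75% (5.62 to 12.8) and 7.32% (4.39 to 11.3), beside 0.569% and 0.486% of endothelial cells. Unthinned, Il2ra was found in 64 and 48 CD4 T cells, Ikzf2 in 6 and 8 and Foxp3 in 0 and 4, and Ikzf4 gave 14 UMIs. Il2ra was thus the most often found of these genes and is shared with activated T cells, so this share does not count regulatory T cells. The share of the T helper 1 genes was higher than those of the T helper 2 and regulatory genes in both libraries. Its intervals did not meet theirs. A share depends on how strongly its 4 genes are transcribed as well as on the number of cells.

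CD8 T cells did not differ from CD4 T cells in the T helper 1 share by more than the intervals, at 31.6% (23.9 to 40.1) and 28.7% (20.4 to 38.2). The intervals of the T cells without a coreceptor UMI overlapped those of the CD4 T cells in the T helper 1 and regulatory shares, at 26.9% and 26.5% for T helper 1 and 12.3% and 11.1% for the regulatory genes. Ifng by itself was seen in 16.3% (12.1 to 21.4) and 20.3% (15.5 to 25.9) of thinned CD4 T cells. Cd40lg, the ligand through which helper cells activate B cells and antigen-presenting cells, was seen in 18.3% and 17.9% of CD4 T cells, 15.3% and 15.4% of T cells without a coreceptor, and 0.735% and 3.70% of CD8 T cells. Unthinned, 34.1% and 35.0% of CD4 T cells held an Ifng UMI and 40.2% and 43.9% a Cd40lg UMI.

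**Figure D2:**
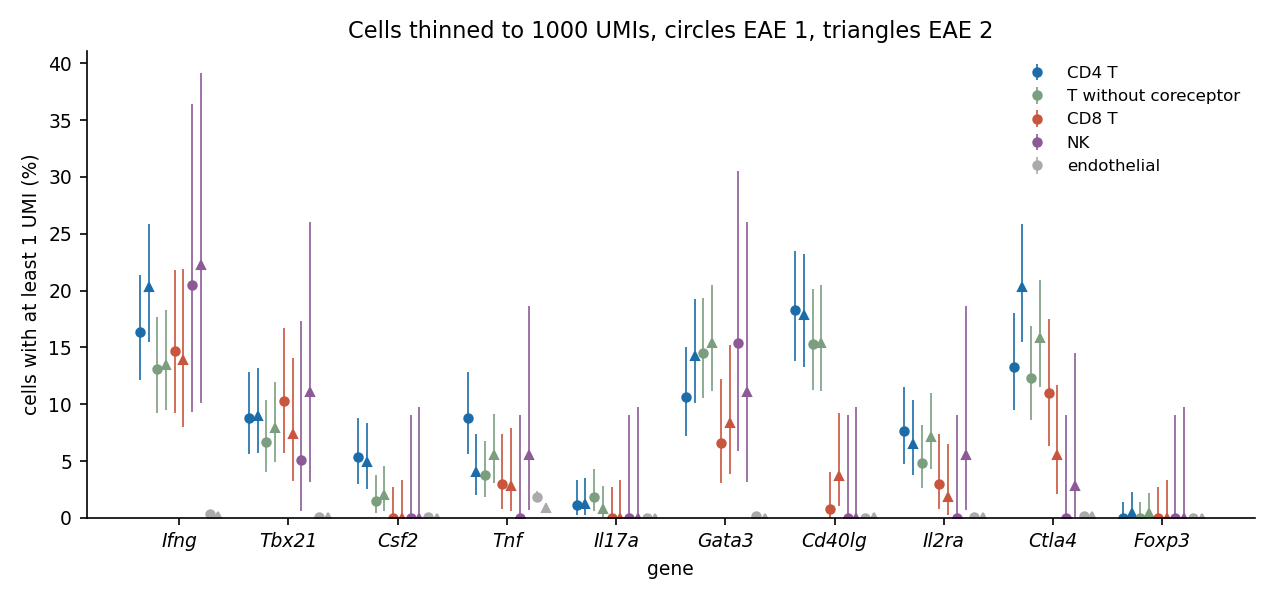
Percentage of cells with at least 1 UMI of each gene (y axis) after thinning every cell to 1000 UMIs, for CD4 T cells, T cells without a coreceptor, CD8 T cells, NK cells and endothelial cells of EAE 1 (circles) and EAE 2 (triangles), with exact 95% intervals. Ifng reaches 16.3% and 20.3% of CD4 T cells, and Foxp3 0% and 0.407%.

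Foxp3 (chromosome X, 7573644 to 7595245 of GRCm38, known as mm10) was scarcely detected at this depth. It gave 0 UMIs in 264 CD4 T cells of EAE 1, which allows a share of up to 1.14% of cells with a UMI, and 10 UMIs in 4 cells of EAE 2, which is 1.63% (0.445 to 4.11). After thinning, 1 of 509 cells kept a UMI. The T cells without a coreceptor added 2 cells in EAE 1 and 4 in EAE 2. The 4 cells of EAE 2 were deep, with a median of 6634.5 UMIs against 3404.5 in the other CD4 T cells of EAE 2. Each of them also held Ctla4, an inhibitory receptor, and Gzmb, a granzyme, and 3 held Ikzf2, the factor Helios of regulatory T cells. None held Cd40lg or Cxcr6, which were found in 44.6% and 80.2% of the other CD4 T cells of that library. With so few cells no comparison of Foxp3 positive and negative cells was fitted. Genes that regulatory and activated T cells share were frequent. Il2ra, the alpha chain of the interleukin 2 receptor, was detected in 64 and 48 cells and Ctla4 in 87 and 96. The suppressive cytokine Il10 gave 1 UMI in each library.

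The helper cytokines were each carried by part of the cells. Ifng (chromosome 10, 118441046 to 118445892) gave 322 UMIs in 90 cells of EAE 1 and 410 in 86 cells of EAE 2, the highest cell holding 16 and 52 UMIs. Csf2 (chromosome 11, 54247271 to 54249667) gave 122 UMIs in 33 cells and 73 in 23 cells, with 50.8% and 47.9% of them in 5 cells. Il17a (chromosome 1, 20730905 to 20734496) gave 15 and 35 UMIs, in 5 cells of each library. Areg, an epidermal growth factor receptor ligand made by tissue regulatory T cells, gave 56 UMIs in 7 cells and 48 in 10 cells, with 96.4% and 87.5% in 5 cells. Interleukin 2 itself (Il2) was seen as single UMIs in 14 and 16 cells. Of the Ifng UMIs, 20.2% and 33.7% lay in 5 cells. Csf2, Il17a and Areg UMIs thus came largely from a few cells, while Ifng was spread over more cells and Il2 over single UMIs.

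Some of these genes were met in the same cells. Of the 56 CD4 T cells with Csf2, 32 also held Ifng (57.1%), whereas Csf2 was held by 18.2% of the cells with Ifng and 7.19% of those without. In each library the same order was seen, with 18.9% against 9.20% in EAE 1 and 17.4% against 5% in EAE 2. Tbx21 was held by 30.1% of the cells with Ifng and 19.8% of those without. None of the 10 cells with Il17a held Ifng, while 9 held Ctla4 and 9 held Cxcr6. Gata3 was spread evenly, in 34.7% of cells with Ifng and 31.7% of cells without. Deeper cells hold more of every gene, so these counts are a description: cells with Ifng had a median of 3404.5 and 3549.5 UMIs, cells without it 3215.5 and 3294.

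To see what else marked the interferon gamma positive cells, the 90 and 86 cells with Ifng were summed in each library and set beside the 174 and 160 without. With 2474 genes reaching 50 CPM in both libraries on at least 1 side, 10 (0.404%) were at least 2-fold higher in the cells with Ifng in both libraries, and 2 (0.0808%) were at least 2-fold lower. This split was chosen after the data were seen, in place of a split by Foxp3, and is described by size alone. Csf2 stood at 242 and 130 CPM with Ifng against 53.1 and 43.2 without, and Tnf, the cytokine tumour necrosis factor, at 120 and 142 against 56.3 and 36.6. Cd69, an early activation receptor, stood at 280.3 and 286 against 135 and 130. Among the others, Birc5, Nusap1, Cdca8 and Ccnb2 act in mitosis, and Birc5 stood at 188 and 183 against 59.5 and 48.2 CPM. Gadd45g, a stress response gene that promotes interferon gamma production, stood at 92.5 and 74.9 against 35.4 and 20.0 CPM. Rgs16, a regulator of G protein signalling, stood at 155 and 178 against 40.2 and 73.2, and the granzyme Gzmk at 103 and 103 against 25.8 and 44.9.

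The lower genes were Ramp3 and Mettl21d. Ramp3, a receptor activity modifying protein, stood at 49.0 and 97.1 CPM with Ifng against 203 and 221 without, and Mettl21d, a methyltransferase, at 35.4 and 41.6 against 85.3 and 93.1. The memory and stem-like factor Tcf7 stood at 27.2 and 49.9 against 96.6 and 96.5 CPM, and the interleukin 7 receptor Il7r at 87.1 and 99.9 against 187 and 198; both were lower in each library but by less than 2-fold in EAE 2. Tbx21 was 0.65 and 0.50 higher on the log2 scale, below the limit of size. By list, 2 of 11 cytokine genes that reached the level (Csf2 and Tnf), 1 of 14 activation genes (Cd69), 2 of 11 cell cycle genes (Birc5 and Ccnb2), 1 of 12 cytotoxic genes (Gzmk) and 0 of 8 T helper 1 genes were at least 2-fold higher in both libraries. The median log2 differences of these lists were 0.30, 0.17, 0.76, 0.33 and 0.41, beside -0.0011 over all 2474 genes.

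**Figure D3:**
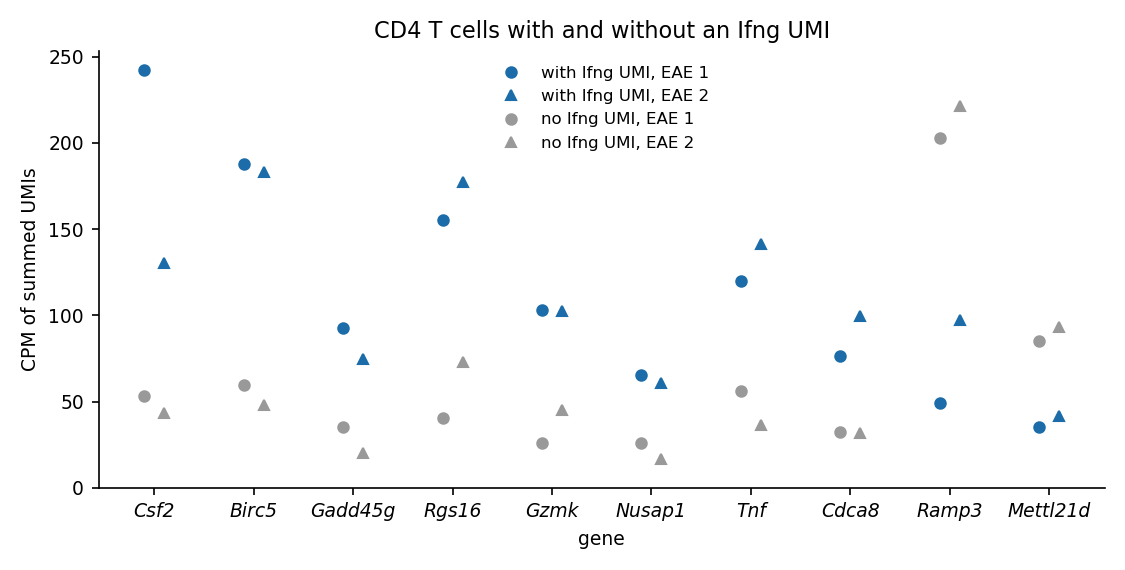
Level of each gene named for the split (y axis, CPM of summed UMIs) in CD4 T cells with an Ifng UMI (blue) and without (grey), for EAE 1 (circles) and EAE 2 (triangles). Csf2 stands at 242 and 130 CPM in the cells with Ifng and at 53.1 and 43.2 without, and Ramp3 lies the other way.

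CD4 T cells were then set against the CD8 T cells of the same libraries (136 and 108 cells) on UMIs summed per library and population, to ask which genes besides the coreceptors separate helper from cytotoxic T cells in the inflamed cortex. Of 6088 genes tested, 340 (5.58%) were higher in CD4 T cells and 259 (4.25%) were lower, by edgeR's quasi-likelihood test with the library as a block and Benjamini-Hochberg adjusted p under 0.05. The median log2 fold change over all tested genes was -0.01. All 7 tested CD4 lineage and helper genes, OX40, the receptor chains Il18r1, Il18rap and Il12rb2 and 8 of 9 tested T helper 17 genes were higher, and 12 of 15 tested cytotoxic genes and 7 of 15 interferon-stimulated genes were lower. The cell sums are from 2 pools of mice. With the library as a block, the p-values rest on how differences between populations vary across these 2 libraries, which may be technical. That spread is estimated over all 5 populations together and with information shared between genes. The p-values do not measure spread between animals.

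Among genes called higher in CD4 T cells with at least 50 CPM there in both libraries, Il1r2 had the largest difference (chromosome 1, 40074079 to 40125231), and it encodes the decoy receptor that binds interleukin 1 without signalling. It stood at 132 and 114 CPM in CD4 T cells and at 3.83 and 2.40 in CD8 T cells, from 241 and 3 UMIs. The ratio was 38.7 with a counting interval of 13.1 to 189 (log2 fold change 5.10 ± 0.44, SE, edgeR adjusted p = 2.48e-28). This SE comes from the test and is narrower than the counting interval. Tnfsf11 (chromosome 14, 78277445 to 78308043), the ligand RANKL, stood at 259 and 226 CPM against 9.56 and 9.61, 23.4-fold higher (log2 4.55 ± 0.30). Tnfrsf4 (chromosome 4, 156013843 to 156016612) stood at 655 and 694 against 34.4 and 48.0, 15.6-fold higher (log2 3.97 ± 0.19, edgeR adjusted p = 3.48e-91). Cd40lg (chromosome X, 57212143 to 57224042) stood at 163 and 179 against 7.65 and 21.6 CPM, 11.5-fold higher (log2 3.52 ± 0.30). In all 4 genes both CD4 T sums lay above both CD8 T sums, which follows from choosing the largest differences and adds no support. Ramp3 (146 and 175 against 7.65 and 4.804 CPM), Ermn (254 and 176 against 13.4 and 4.804) and Nrgn (160 and 156 against 1.91 and 24.0) were also among the 8 largest, with Csf2, given below. Ermn and Nrgn are better known from oligodendrocytes and neurons. The 6 markers of oligodendrocytes and neurons summed to 72.8 and 59.3 CPM in CD4 T cells, 49.7 and 60.1 in CD8 T cells, 13.2 and 24.6 in NK cells, 23.1 and 20.9 in myeloid cells and 13.8 and 11.5 in endothelial cells. The sum in CD4 T cells was nearly all Mbp, the gene of myelin basic protein, with 68 and 57 UMIs, while Mog, Cldn11 and Snap25 were at 0 in both libraries. The part of such transcripts in the Ermn and Nrgn differences was not tested.

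All 7 tested genes of a CD4 lineage and helper list were higher (median log2 fold change 1.83): Zbtb7b, the factor ThPOK that sets the CD4 fate, at 43.5 and 33.3 CPM against 11.5 and 12.01 (log2 1.62 ± 0.45, edgeR adjusted p = 0.00619), the factor Maf (1.83 ± 0.25), the CD30 ligand Tnfsf8 (2.81 ± 0.39), the costimulatory receptor Icos (0.36 ± 0.12), Il7r (0.72 ± 0.19), and Cd40lg and Tnfsf11 as above. Tox was below the filter on low counts.

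Of 23 regulatory T cell genes in the files, 10 were higher, 0 lower, 4 were not called and 9, Foxp3 among them, were too low to test. Several of the 10, such as Il2ra, Ctla4, Tnfrsf4, Tnfrsf9 and Tnfrsf18, are also known from activated T cells. Il2ra stood at 98.1 and 78.0 CPM against 26.8 and 26.4 (log2 1.64 ± 0.29, edgeR adjusted p = 7.65e-07). Ctla4 stood at 211 and 255 against 178 and 96.1 (0.65 ± 0.17), a difference of 0.24 in EAE 1 and 1.39 in EAE 2. Tnfrsf18, the receptor GITR, stood at 294 and 295 against 166 and 127 (0.91 ± 0.16) and Tnfrsf9, the receptor 4-1BB, at 152 and 115 against 61.2 and 31.2 (1.42 ± 0.23). Nrp1, neuropilin 1, was 6.85-fold higher, and Capg, Socs2 and Il2rb were higher by 1.31, 1.05 and 0.45. Areg rested on 104 UMIs against 1, a ratio of 50.1 with a counting interval of 8.79 to 1996. The Helios gene Ikzf2 stood at 7.08 and 19.8 CPM against 23.0 and 28.8 and was not called (adjusted p = 0.146).

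The T helper 1 list was divided, with 4 of 12 genes higher and 4 lower (median 0.05). Ifng stood at 326 and 426 CPM against 253 and 163 (log2 0.72 ± 0.15, edgeR adjusted p = 3.32e-05), a difference of 0.36 in EAE 1 and 1.38 in EAE 2. Of the receptor chains for interleukin 12 and interleukin 18, cytokines that drive interferon gamma, 3 of 4 were higher: Il12rb2 at 65.7 and 45.8 against 21.04 and 9.61 CPM (1.73 ± 0.38), Il18r1 at 252 and 285 against 153 and 127 (0.84 ± 0.16) and Il18rap at 126 and 88.4 against 59.3 and 40.8 (0.999 ± 0.23). Il12rb1, the other interleukin 12 receptor chain, at 22.2 and 20.8 against 17.2 and 12.01 CPM, was not called (0.46 ± 0.49, adjusted p = 0.685). The lower genes were the chemokine Ccl5, at 2219 and 1747 against 12680.1 and 15861 CPM (-2.94 ± 0.11), the chemokine receptor Cxcr3, at 61.7 and 72.8 against 145 and 134 (-1.16 ± 0.19), the cytotoxic lineage factor Eomes (-4.005 ± 0.62) and the kinase Txk (-0.94 ± 0.31). Tbx21 itself stood at 79.9 and 74.9 CPM against 80.3 and 81.7 (-0.15 ± 0.22, adjusted p = 0.779), so that a difference in T-bet was not detected.

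Of 9 tested T helper 17 genes 8 were higher and 0 lower (median 1.44). Rora, a retinoid-related orphan receptor of T helper 17 and tissue T cells, stood at 650.3 and 635 CPM against 269.7 and 298 (log2 1.099 ± 0.13, edgeR adjusted p = 4.44e-15). The leukotriene receptor Ltb4r1 was higher by 2.58 ± 0.34, the ion channel genes Tmem176a and Tmem176b by 1.69 ± 0.27 and 1.44 ± 0.22, and Ahr, Batf and Stat3, transcription factors used by T helper 17 cells among others, by 1.47, 0.66 and 0.66. Il17a rested on 50 UMIs against 0, at least 8.02-fold higher when CD8 T cells are set to a floor of 3 counts. Il23r (7 against 1 UMI) and Il17f (2 against 0) were too low to test. Of the T helper 2 and follicular helper list, Bcl6, the follicular helper factor, was higher at 33.4 and 32.2 CPM against 5.74 and 4.804 (log2 2.49 ± 0.57), and Pdcd1, the receptor PD-1, and Sh2d1a, a signalling adaptor, were lower (-0.60 ± 0.17 and -0.77 ± 0.17). Gata3, at 116 and 151 against 76.5 and 98.5 CPM, was not called (adjusted p = 0.0675).

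Among 16 tested proinflammatory cytokines 5 were higher and 2 lower. Csf2 stood at 123 and 75.9 CPM against 9.56 and 0, from 195 and 5 UMIs (log2 4.09 ± 0.95, edgeR adjusted p = 0.0388). Lta, lymphotoxin alpha, stood at 43.5 and 43.7 against 0 and 12.01 CPM (2.88 ± 0.54), Tnf at 79.9 and 75.9 against 36.3 and 40.8 (0.93 ± 0.27) and Tgfb1, a regulatory cytokine, at 367 and 283 against 107 and 127 (1.396 ± 0.17). The macrophage inhibitory factor Mif was higher by 0.61 ± 0.10. The chemokines Ccl4 and Xcl1 were lower (log2 -1.82 and -1.80), although for Xcl1 the sums overlapped, at 17.2 and 6.24 CPM against 61.2 and 14.4. Ccl1, a chemokine for CCR8, stood at 494 and 189 CPM against 3.83 and 7.21 and was not called (adjusted p = 0.525), and 53.5% and 72.0% of its UMIs in CD4 T cells came from 5 cells. Il2 stood at 14.2 and 16.6 CPM against 15.3 and 16.8.

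**Figure D4:**
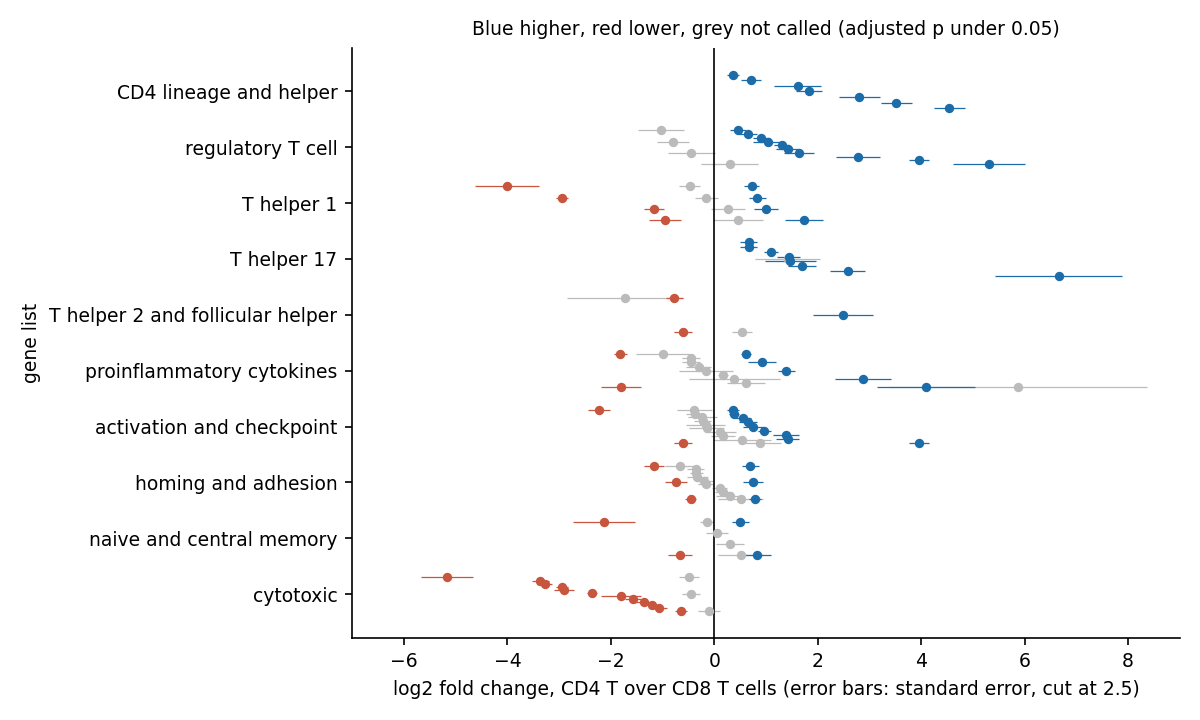
Log2 fold change of CD4 T over CD8 T cells (x axis) for the tested genes of 10 lists (y axis), with the standard error as bars cut at 2.5; blue genes were called higher, red lower and grey not called. All 7 CD4 lineage and helper genes lie on the right and 12 of 15 cytotoxic genes are called on the left.

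The genes lower in CD4 T cells were led by the cytotoxic program, of which 12 of 15 tested genes were lower and 0 higher (median log2 fold change -1.57). Gzmb stood at 124 and 104 CPM against 1280 and 831 (log2 -3.28 ± 0.14, edgeR adjusted p = 2.33e-120) and Gzma at 580.5 and 654 against 2709 and 3293 (-2.37 ± 0.09). Gzmk was 10.3-fold lower. Crtam, an adhesion receptor of cytotoxic cells, gave 4 UMIs against 72 and was 35.8-fold lower, and Klrk1, the activating receptor NKG2D, was 7.45-fold lower. Cd160, an NK and CD8 T cell receptor, was 6.61-fold lower, Dapk2, a death-associated kinase, 9.72-fold lower and Wdr95 6.59-fold lower. CD4 T cells still carried part of this program: Nkg7, a granule protein gene, stood at 1389 and 1268 CPM against 3087 and 2678 (-1.20 ± 0.09) and was detected in 362 of the 510 cells.

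Activation genes were more often higher than lower, 9 and 2 of 21 tested. Bhlhe40, a factor needed for GM-CSF production by T cells, stood at 758 and 705 CPM against 341 and 365 (log2 0.97 ± 0.12, edgeR adjusted p = 3.03e-13), and Nr4a1 and Nr4a3, induced by T cell receptor signals, were higher by 0.56 and 1.39. The costimulatory receptor Cd27 was lower, at 33.4 and 39.5 against 180 and 142 CPM (-2.23 ± 0.21). Of the T cell receptor list 4 of 14 genes were higher (Cd5, Cd6, Cd2 and Cd247) and 0 lower, and Trbc1, Trbc2, Lck and Lat differed by at most 0.17 on the log2 scale.

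Homing genes went both ways, 3 higher and 3 lower of 16. Cxcr6 stood at 928 and 849 CPM against 494 and 476 (0.79 ± 0.11), and the integrin Itgb1 and the hyaluronan receptor Cd44 were higher by 0.70 and 0.74. The integrin alpha 4 gene Itga4, whose product lets T cells enter the inflamed brain, was lower at 65.7 and 64.5 against 109 and 98.5 CPM (-0.75 ± 0.21), as were Selplg and Cxcr3. Of the naive and memory genes Satb1 and Tcf7 were higher and Foxp1 was lower. Of 15 tested interferon-stimulated genes 7 were lower and 1, Ifi27l2a, was higher (median -0.53), with Ly6c2 at 558 and 762 CPM against 3548 and 2630.2 (-2.31 ± 0.12) and Ifit3 at 37.4 and 46.8 against 97.6 and 120 (-1.46 ± 0.24). In the metabolism and stress list 5 of 15 were higher and 0 lower, among them Hif1a, the hypoxia factor, at 352 and 351 CPM against 107 and 134 (1.47 ± 0.17) and Ldha, lactate dehydrogenase, at 1460.4 and 1348 against 773 and 658 (0.88 ± 0.10). Of 13 cell cycle genes 0 were called by edgeR (4 at an unadjusted p under 0.05) and 0 by DESeq2, and the 15 tested B cell and antigen presentation genes gave the same counts.

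Several of these calls depend on the model. DESeq2 called 4 of the 7 CD4 lineage genes higher, 6 of the 14 regulatory genes, 4 of the 9 T helper 17 genes and 11 of the 15 cytotoxic genes lower, with 1, 4, 2 and 1 given no adjusted p. Under DESeq2 the calls of Csf2 (adjusted p = 0.196), Nrgn (0.0648), Ifng (0.127), Tnf (0.236), Ctla4 (0.631), Icos, Il7r, Il2rb, Socs2, Il18rap, Txk, Ahr, Batf, Stat3, Pdcd1, Cd2, Cd247, Nr4a1, Cd44, Itga4, Tcf7, Satb1 and Foxp1 were lost. Without the library block those of Csf2, Ctla4, Icos, Il2rb, Cd2, Satb1, Foxp1 and Xcl1 were lost. The call of Csf2 was also lost when the cells called doublets were left out of all populations (edgeR adjusted p = 0.0542). When cells with any UMI of the myeloid or endothelial gate genes were left out, 98 CD4 T cells remained and 108 genes were called, 97 of them in common with the 599. Of the named genes 36 kept their call there and 47 lost it: Il1r2, Tnfsf11, Tnfrsf4, Cd40lg, Ramp3, Ermn, Nrgn, Ifng, Gzmb, Gzmk and Crtam were called, while Csf2, Ccl5, Gzma, Il2ra, Ctla4, Tnf, Tgfb1, Cxcr6 and Ly6c2 were among those not called.

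**Figure D5:**
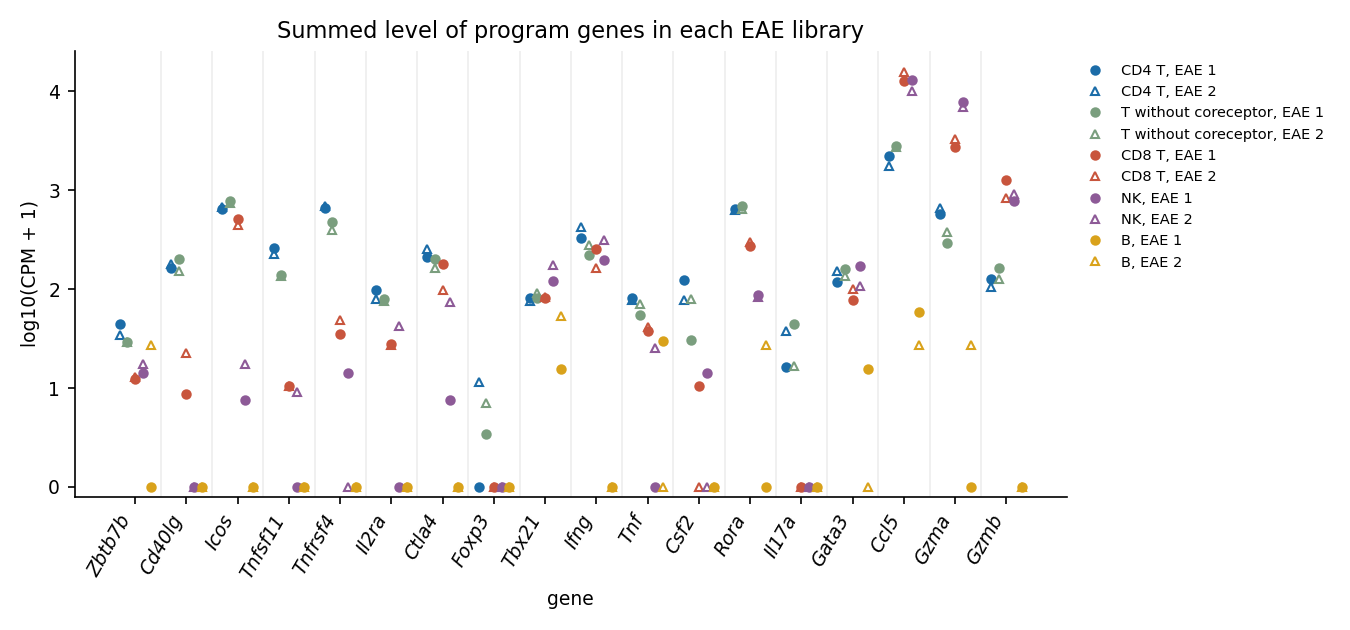
Level of 18 genes of helper, regulatory and cytotoxic programs (y axis, log10 of CPM + 1) in the summed cells of 5 lymphocyte populations, EAE 1 as filled circles and EAE 2 as open triangles. Cd40lg, Tnfsf11, Tnfrsf4 and Csf2 are high in CD4 T cells and T cells without a coreceptor, and Gzma and Gzmb in CD8 T and NK cells.

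T cells without a coreceptor UMI lay nearer to the CD4 T cells than to the CD8 T cells in several of these levels, which are given with no test. Cd40lg stood at 199 and 152 CPM in them, Tnfrsf4 at 477 and 398, Tnfsf11 at 139 and 136, Rora at 700.0 and 639.8, and Gzmb at 161 and 126. Ikzf2 was not near, at 70.7 and 60.7 CPM in T cells without a coreceptor against 7.08 and 19.8 in CD4 T cells. Csf2 was uneven in them, at 29.3 and 78.9 CPM. Markers of some other cell types stood apart in them. The 6 gamma delta T cell markers summed to 39 and 23 UMIs (47.6 and 27.9 CPM) against 2 and 2 in CD4 T cells, and the 7 NK and innate lymphoid markers to 494 and 438 CPM against 287 and 323. Red blood cell genes summed to 106 and 7623 CPM against 194 and 59.3, so that they were lower in EAE 1 and higher in EAE 2. The neutrophil list summed to 1007 and 227 CPM against 210.4 and 186, and the monocyte list to 1909 and 1983 against 2160 and 2240. The part of such cells in these levels was not tested.

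Natural killer (NK) cells, innate lymphocytes with 39 and 36 cells, were compared next. CD4 T cells were higher in 477 of 6088 genes (7.84%) and lower in 328 (5.39%). The genes with the largest fitted differences were Cd6, Ermn, Cd40lg, Cd5, Ramp3, Bcl11b, Gm8369 and Themis, each with 0 UMIs in all NK cells. Set against a floor of 3 counts over the NK cells, Cd6, a T cell receptor regulator with 617 UMIs in CD4 T cells, was at least 28.8-fold higher, Ermn at least 19.6-fold and Cd40lg at least 15.5-fold. In the other direction stood 5 Ly49 receptor genes, Klra7, Klra4, Klra8, Klra13-ps and Klra9, near-identical copies whose reads may be split among them, with Klra7 at 0 CPM against 588 and 879. Khdc1a, Sh2d1b1, an NK signalling adaptor, and Spry2, a signalling inhibitor at 1.01 and 4.16 against 548 and 698 CPM, followed.

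Of the T cell receptor list 13 of 14 genes were higher than in NK cells, and of the cytotoxic list 14 of 15 were lower. NK cells were gated on NK receptor genes and on having no CD3 UMI, so these list counts were partly set by the gates. Gzma stood at 580.5 and 654 CPM against 7875 and 6943 (log2 -3.61 ± 0.10). The T helper 1 list had 1 gene higher and 4 lower. Ifng stood at 326 and 426 CPM against 198 and 312 (0.57 ± 0.20, edgeR adjusted p = 0.0313), while Tbx21, at 79.9 and 74.9 against 119 and 173 (-0.90 ± 0.29, adjusted p = 0.0172), Eomes, Ccl5 and Txk were lower. Cxcr6 was among the strongest homing differences, at 928 and 849 CPM against 19.8 and 8.22 (5.89 ± 0.31). Tnfrsf4 rested on 1315 UMIs against 2, a ratio of 92.0 with a counting interval of 25.4 to 761, and Icos on 1284 against 3, a ratio of 59.9 (20.5 to 291). Il2rb, the receptor chain through which NK cells take up interleukin 2 and 15, was lower (-1.06 ± 0.17). Of 14 tested regulatory genes 7 were higher and 2, Il2rb and Nt5e, were lower (5 and 2 under DESeq2). Of 9 tested T helper 17 genes 4 were higher and 1, Ahr, was lower (3 and 1 under DESeq2). Of 15 interferon-stimulated genes 9 were higher and 0 lower, and of 13 cell cycle genes 5 were higher (3 under DESeq2), Top2a at 131 and 134 CPM against 79.3 and 24.7 (1.28 ± 0.35). Csf2, at 123 and 75.9 against 13.2 and 0 CPM, was not called (adjusted p = 0.178). The calls of Ifng and Tbx21 were lost under DESeq2, that of Ifng also with RLE size factors and without the library block, and of the genes above Klra8, Klra9, Khdc1a and Top2a were lost under DESeq2. DESeq2 called 238 genes higher and 279 lower, a split that leans the other way.

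B cells were few, with 26 and 15 cells. CD4 T cells were higher in 614 of 6088 genes (10.1%) and lower in 322 (5.29%), and the median log2 fold change over all tested genes was 0.31. All 14 tested T cell receptor genes were higher and all 15 tested B cell and antigen presentation genes were lower. B cells were gated on Cd79a and Cd79b and on having no CD3 UMI, so these list counts were partly set by the gates. Of 14 tested regulatory genes 7 were higher and 0 lower (6 and 0 under DESeq2). Of 9 tested T helper 17 genes 6 were higher and 1, Ahr, was lower (3 and 1 under DESeq2). Nkg7, with 2593 UMIs in CD4 T cells and 0 in B cells, was at least 47.4-fold higher, Thy1 at least 34.8-fold, Lck, the kinase of the T cell receptor, at least 24.9-fold, Tnfrsf4 at least 24.1-fold and Icos at least 23.5-fold. Trbc1, Ctsw and Fyb completed the leading genes. Cd74, the invariant chain of class II presentation, stood at 271 and 278 CPM against 19789 and 20399 (log2 -6.22 ± 0.23, edgeR adjusted p = 1.72e-08), and H2-Aa, a class II chain, at 144 and 123 against 6131 and 7384.

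The leading genes on the B cell side included Ly6d, Iglc2, Ms4a1 (the antigen CD20), Mzb1, Igkc, Fcrla and Pou2af1, the first with 1 UMI against 176. Igkc, the kappa light chain, stood at 9.10 and 24.9 CPM in CD4 T cells against 41685 and 4871 in B cells (log2 -10.28 ± 1.14), so that the B cell sums themselves were far apart. Ccr7 was lower in CD4 T cells, at 32.4 and 21.8 against 407 and 262 CPM (-3.70 ± 0.40), as was Foxp1. Cell cycle genes were higher in 9 of 13, Hmgb2 at 752 and 881 CPM against 72.7 and 0 (4.09 ± 0.36), and in 4 of 13 under DESeq2. Ltb, lymphotoxin beta, at 861 and 902 against 654 and 1021 CPM, was not called (adjusted p = 0.753). With RLE size factors the median over all genes was 0.21 and 865 genes were called, while DESeq2 called 261 higher and 338 lower. Of these genes Ms4a1, Mzb1, Fcrla and Pou2af1 lost their call under DESeq2, and Igkc when only CD4 T and B cells were fitted.

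Among the 5 populations of these cortices, Il17a was found in CD4 T cells and T cells without a coreceptor alone, with 50 and 49 UMIs, and in 0 cells of the others at their depth. The T cells without a coreceptor are the population with 39 and 23 UMIs of gamma delta T cell markers, and gamma delta T cells are known to make Il17a. Their part in its count was not tested. Ifng was spread more widely, at 326 and 426 CPM in CD4 T cells, 222 and 282 in T cells without a coreceptor, 253 and 163 in CD8 T cells and 198 and 312 in NK cells, with 0 UMIs in B cells. Tbx21 had its highest level in NK cells, at 119 and 173 CPM, while CD4 T, CD8 T and T cells without a coreceptor lay between 74.9 and 91.1. The 3 comparisons share the CD4 T sums, so they are not independent of each other.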

How the data were processed

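The deposited files held whole-number UMI counts per gene and cell, unnormalized. Per the labels, the authors made them with bcl2fastq 2.19.1.403, UMI-tools 0.5.3, STAR 2.5.3a and featureCounts 1.6.1 on mm10. The files held 26921 genes and total 15755504 to 34326349 UMIs per library.

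Cells of EAE 1 and EAE 2 were gated on UMIs into CD4 T, CD8 T, T without coreceptor, NK and B cells. CD8 T cells had at least 2 CD3 UMIs, at least 1 of Cd8a and Cd8b1 and none of Cd4. T cells without coreceptor had at least 2 CD3 UMIs and none of Cd4, Cd8a or Cd8b1. NK cells had no CD3 UMI, at least 2 UMIs of Ncr1, Klrb1c and Klre1 and at most 1 of Cd79a and Cd79b. B cells had no CD3 UMI, at least 2 UMIs of Cd79a and Cd79b and at most 1 of those NK genes. The myeloid and endothelial limits held for all. Counts were summed per library and population, and populations were compared in 1 fit with edgeR 4.0.16 (TMM scaling, filterByExpr, robust quasi-likelihood test, library as a block, gate genes left out of the calls, Benjamini-Hochberg adjustment over all genes tested, called at an adjusted p under 0.05). Standard errors are the log2 fold change divided by the square root of the F statistic. They come from the test and can be smaller than counting error where a population had few UMIs. The block stands for the pool of mice that all populations of a library share. Levels are CPM of summed UMIs. Endothelial cells had at least 3 UMIs of Cldn5 and Flt1, at most 3 of the myeloid gate genes and no CD3 UMI. Myeloid cells had at least 10 UMIs of the myeloid gate genes, at most 2 of Cldn5 and Flt1 and no CD3 UMI. Where a population had 0 UMIs, bounds used a floor of 3 counts over the group, and ratios on 1 to 3 UMIs have exact intervals. The share that 0 cells with a UMI allows is 3 over the number of cells, which is below the upper end of the exact interval. The 95% intervals of shares are exact binomial (Clopper-Pearson) and cover counting error only. EAE 1 and EAE 2 differed by more than sampling noise in CD4 T cells (mean squared z 1.34 over 2494 genes) and, labelled as replicates, were counted as 2 samples. Scrublet in scanpy 1.11.5 called doublets, which were kept. The fit was tested on simulated data.

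Genes named are members of gene lists that were called, the first 4 of each list, and the 8 largest called changes in each direction among genes with at least 50 CPM in the higher population in both libraries and 1 direction in both. For the Ifng split the same rule used size alone (at least 2-fold in both libraries). The members, lists and tests were chosen with earlier results of these data known. Alternatives were DESeq2 1.42.0, RLE size factors, no filter on low counts, no block, the compared populations only, stricter or wider gates, doublets left out, single libraries and other thinning depths. A split of the CD4 T cells by Foxp3, which was planned, left 0 and 4 cells and was not fitted. Some items are not reported here.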

Additional observations from a re-analysis of the deposited data

Results flagged for a closer look

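Cells with UMIs of both Cd4 and Cd8a or Cd8b1 entered no comparison. They were 22 of 16418 kept cells in EAE (0.134%), at 0.156% in EAE 1 and 0.111% in EAE 2, above the adult libraries, where the highest share was 0.0314%. Their share in the juvenile libraries had a library far from the others, Juvenile 1 with 0.0373%, which is 1 cell of 2678, against 0 cells in the other 3. A single count makes this difference.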

How the results depend on the processing

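Counts of called genes moved with the model and with the gate. Against CD8 T cells 599 genes were called, 245 under DESeq2 and 108 when only cells with no myeloid or endothelial UMI were used. Against NK cells the count was 805, 517 under DESeq2 and 95 under that gate, where the NK sum came from EAE 2 alone. Against B cells it was 936, 599 under DESeq2 and 610 when CD4 T and B cells were fitted alone, and the stricter gate left too few B cells to be run. Without the filter on low counts 74.0% of the calls against NK cells and 77.0% of those against B cells were higher in CD4 T cells. The fit without the library block, which ignores the pairing of populations within a library, called 504, 751 and 923 genes. Stricter gating lowered the share of CD4 T cells from 3.11% to 0.597%, and single libraries gave 3.04% to 3.17%. The thinned Foxp3 share of 0.197% was 0% with at least 2 Cd4 UMIs and ran from 0% to 0.407% over single libraries.

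Of 2304 values of named genes under these settings, 2012 kept direction and call, 287 kept direction and lost the call, and 5 changed direction, all with the stricter gate: Gbp2 against CD8 T cells (log2 0.37), and Hspa1b (0.61), Jun (0.17), Klrc1 (0.46) and Zbp1 (-0.36) against NK cells. In EAE 2 alone and EAE 1 alone, with no test, 36 and 29 of 91 values against CD8 T cells, 32 and 29 of 110 against NK cells and 74 and 72 of 125 against B cells moved by more than 1 SD between the libraries. Cxcr4 against B cells was 0.75 in EAE 1 alone and -2.36 in EAE 2 alone. The causes were not tested. Small numbers limit the comparisons too: 41 B cells and 75 NK cells, and 1 Cd4 UMI in most CD4 T cells.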
